A study of Mus musculus with 2 samples.

Results

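The genes described here are 9 basic helix-loop-helix (bHLH) factors of the mouse coronal suture. They are the Twist factors Twist1 and Twist2, the E proteins Tcf12, Tcf3 and Tcf4, and the inhibitors Id1, Id2, Id3 and Id4. They were chosen by symbol, and each has exactly 1 row among the 31053 genes listed for the E15.5 library and the 27998 listed for the E17.5 library. For each gene the unique molecular identifiers (UMIs, tags that mark single captured transcripts) were summed over the cells of each cluster of the authors' deposited table. A level is given in CPM, the UMIs of the gene over all UMIs of those cells, times 1000000.

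The coronal suture joins the frontal and parietal bones of the skull. Both libraries hold cells of wildtype C57/BL6 embryos, captured with 10x Genomics Chromium 3′ version 2 reagents, and the E prefix gives the embryonic day. The E15.5 library came from 10 pooled sutures digested with collagenase II and dispase, and dead cells were removed with a kit. The E17.5 library came from 16 sutures of 2 litters in 3 batches, digested with collagenase IV and sorted by FACS. No mutant or treated sample is part of the comparison. Stage cannot be told apart from dissection, enzyme, cell strainer, sorting, embryos, sequencing site, sequencing depth or software version. All of these separate the libraries in the same way. With 1 library per stage no test was possible, and all intervals (95%, exact) cover counting error only.

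The 15 clusters fall into 6 osteogenic clusters (OG1 to OG4 and the proliferative PO1 and PO2), 5 ectocranial clusters above the bones (EC1 to EC4 and the ligament-like LIG) and 4 meningeal clusters below them (MG1 to MG4). Labelled cells numbered 5335 at E15.5, with a median of 8510 UMIs, and 6830 at E17.5, with a median of 12301.5 UMIs. Of the cells in the deposited table, 5 are missing from the E15.5 matrix. The libraries shared 190 cell barcodes, 42 of them in labelled cells of both. Haemoglobin UMIs were found throughout, with a summed level per cluster of 7997 to 12436 CPM at E15.5 and 491 to 816 CPM at E17.5, and summed myeloid markers lay at 12.4 to 48.8 CPM and 84.6 to 115 CPM. With mitochondrial, ribosomal and haemoglobin genes left out of the total, all 12 higher and 30 lower calls between libraries given below were kept. Any other part of these UMIs in the levels below was not tested. The UMIs of the E15.5 matrix were fewer than the authors' table gives for the same cells (median 11513). The E17.5 barcodes carry 3 suffixes, with 1234, 2770 and 2826 labelled cells, and which batch each suffix belongs to is not given in the sources used here.

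bHLH proteins bind DNA at E-box motifs as pairs. Twist proteins pair with each other or with the broadly expressed E proteins. Id proteins lack the basic region that contacts DNA, so a pair that contains an Id protein does not bind, and Id genes are known targets of BMP signalling. Loss of a copy of TWIST1 causes Saethre-Chotzen syndrome, and loss of a copy of TCF12 causes coronal synostosis, the early fusion of this suture.

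Twist1 and Twist2 are the closest relatives in the set, so the stretch that encodes part of their shared bHLH domain is shown to let a reader judge whether reads could be confused. Both lines are from GRCm38 on the plus strand, with positions chr12:33958338-33958487 for Twist1 and chr1:91801849-91801998 for Twist2, and each lies in a coding exon. Capitals mark the bases that differ.
Twist1: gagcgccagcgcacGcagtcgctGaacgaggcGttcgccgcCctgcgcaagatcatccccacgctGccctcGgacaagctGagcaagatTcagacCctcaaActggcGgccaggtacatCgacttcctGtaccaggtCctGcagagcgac
Twist2: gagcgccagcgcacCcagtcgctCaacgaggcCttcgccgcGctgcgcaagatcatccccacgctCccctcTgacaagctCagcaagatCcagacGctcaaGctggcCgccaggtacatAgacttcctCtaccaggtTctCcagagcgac
The 150 bases differ at 15 positions, so the identity was 90%, and the longest identical run was 23 bases. All 15 differing codons of the 50 encode the same amino acid in both genes. Over 480 aligned coding bases the genes differed at 148 positions, an identity of 69.2%.

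The 3′ kit reads transcript ends, and none of the 36 pairs of members shared a run of 31 bases within the last 600 bases of their coding transcripts. Twist1 lies at chr12:33957671-33959829 and Twist2 at chr1:91801461-91848028, both on the plus strand of GRCm38. Of the E proteins, Tcf12 lies at chr9:71842688-72111871, Tcf3 at chr10:80409514-80433647 and Tcf4 at chr18:69343356-69689079. Id1 lies at chr2:152736251-152737410, Id2 at chr12:25093799-25097140, Id3 at chr4:136143497-136145755 and Id4 at chr13:48261228-48266026. Among the genes listed for the libraries, some of the opposite strand overlap Twist2 (Gm29100) and Id4 (A330033J07Rik and Gm49291). No listed gene of the same strand overlaps a member.

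The cluster names were checked against 29 pairs of a marker and a cluster. In 24 pairs the marker was at least 2-fold above the other labelled cells in both libraries. The exceptions were Pthlh in OG1 and Ly6a in EC3, which missed this limit at E15.5 only, and 3 that missed it at E17.5 only. These were Lef1 and Inhba in OG2 and Nppc in MG1, so both OG2 markers passed the limit at E15.5. In the E15.5 library OG2, PO1 and PO2 held little of the osteoblast genes Sp7 and Alpl, although their labels are osteogenic. Sp7, an osteoblast transcription factor, was at 4.14 CPM in OG2, 1.959 in PO1 and 10.3 in PO2, against 172, 180 and 156 CPM at E17.5. Alpl, the alkaline phosphatase of mineralising bone, was at 9.02, 6.86 and 6.20 CPM against 286, 288 and 217. Runx2, another osteoblast transcription factor, was at 30.7, 21.5 and 30.98 CPM against 115.6, 103.3 and 124.7. Its E15.5 levels there were above those of EC1 (9.75 CPM), EC2 (4.99), EC3 (4.76), MG3 (13.2) and MG4. They were below those of EC4 (36.9 CPM), LIG (48.9) and MG2 (40.4), and MG1 was at 30.5 CPM. The E15.5 cells of OG2, PO1 and PO2 held Crabp1, a retinoic acid binding protein, at 1742, 1297 and 1508 CPM. Those of E17.5 held 88.5, 24.2 and 17.9 CPM. Sp7, Alpl, Runx2 and Crabp1 were chosen after values were seen. OG1 at E15.5 held 273 CPM of Crabp1 and also the highest summed levels of muscle (432 CPM) and keratinocyte (396 CPM) markers of any cluster of its library. EC1, labelled ectocranial, also differed: Crabp1 was at 322 CPM at E15.5 and 30.1 at E17.5, Sp7 at 2.93 and 110 CPM (above OG1 at E17.5, with 91.9), and Alpl at 12.4 and 197 CPM. For these 5 clusters the same name covered cells that differed in content between the libraries, and ratios between libraries there compare those cells. Crabp1 also differed in clusters outside these 5, as in EC3 (167 and 12.2 CPM), MG1 (172 and 28.7) and MG3 (110 and 8.82), but not in LIG (120 and 119). Alpl in EC3 was at 14.2 and 99.0 CPM. Ratios between libraries in the other clusters may thus also compare cells that differ in content.

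Twist1 was detected in every cluster of both libraries and was higher at E17.5 in nearly all. Labelled cells of the E15.5 library held 34.4 CPM (32.8 to 36.1) and those of the E17.5 library 94.1 CPM (92.2 to 96.1), with 85.9, 96.1 and 95.5 CPM in the 3 suffixes. The suffixes thus lay close together and far above the E15.5 value. At E15.5 the highest level was in PO2 (86.7 CPM), followed by PO1 (64.6) and OG2 (61.4), and the lowest was in EC3 (21.7). At E17.5 the order was different, with LIG highest (145 CPM), then PO2 (128) and OG1 (123), and with MG4 (33.2) and OG4 (43.8) lowest. All 14 neighbouring pairs of the E15.5 order had overlapping intervals, and 13 of 14 did at E17.5, so neighbours in either order are mostly not separated beyond counting error.

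Within the same cluster the E17.5 level of Twist1 was a median of 2.95 times the E15.5 level. The interval lay above 1 in 13 of 15 clusters, and the widest gap was in LIG, with 32.3 CPM at E15.5 and 145 at E17.5, a ratio of 4.48 (3.74 to 5.41). The suffixes gave 6.10, 4.38 and 4.46 in LIG. OG4, marked by the late osteoblast genes Ifitm5 and Dmp1, did not share this pattern, with 45.9 CPM at E15.5 and 43.8 at E17.5, a ratio of 0.955 (0.755 to 1.22). MG4 had 28.6 and 33.2 CPM, and its interval also held 1. Unlabelled cells that carried myeloid markers, taken as a reference for background, held 4.87 CPM at E15.5 and 14.3 at E17.5. This reference was thus also higher at E17.5, from a level far below that of the labelled cells. Twist1 was likewise higher at E17.5 in unlabelled cells with pericyte markers (19.1 and 49.4 CPM) and chondrocyte markers (16.98 and 49.7). Cells with endothelial markers held 4.75 and 13.7 CPM, from 2 and 22 UMIs. The higher Twist1 level at E17.5 was therefore not limited to the labelled clusters, and its cause was not tested.

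**Figure D1:**
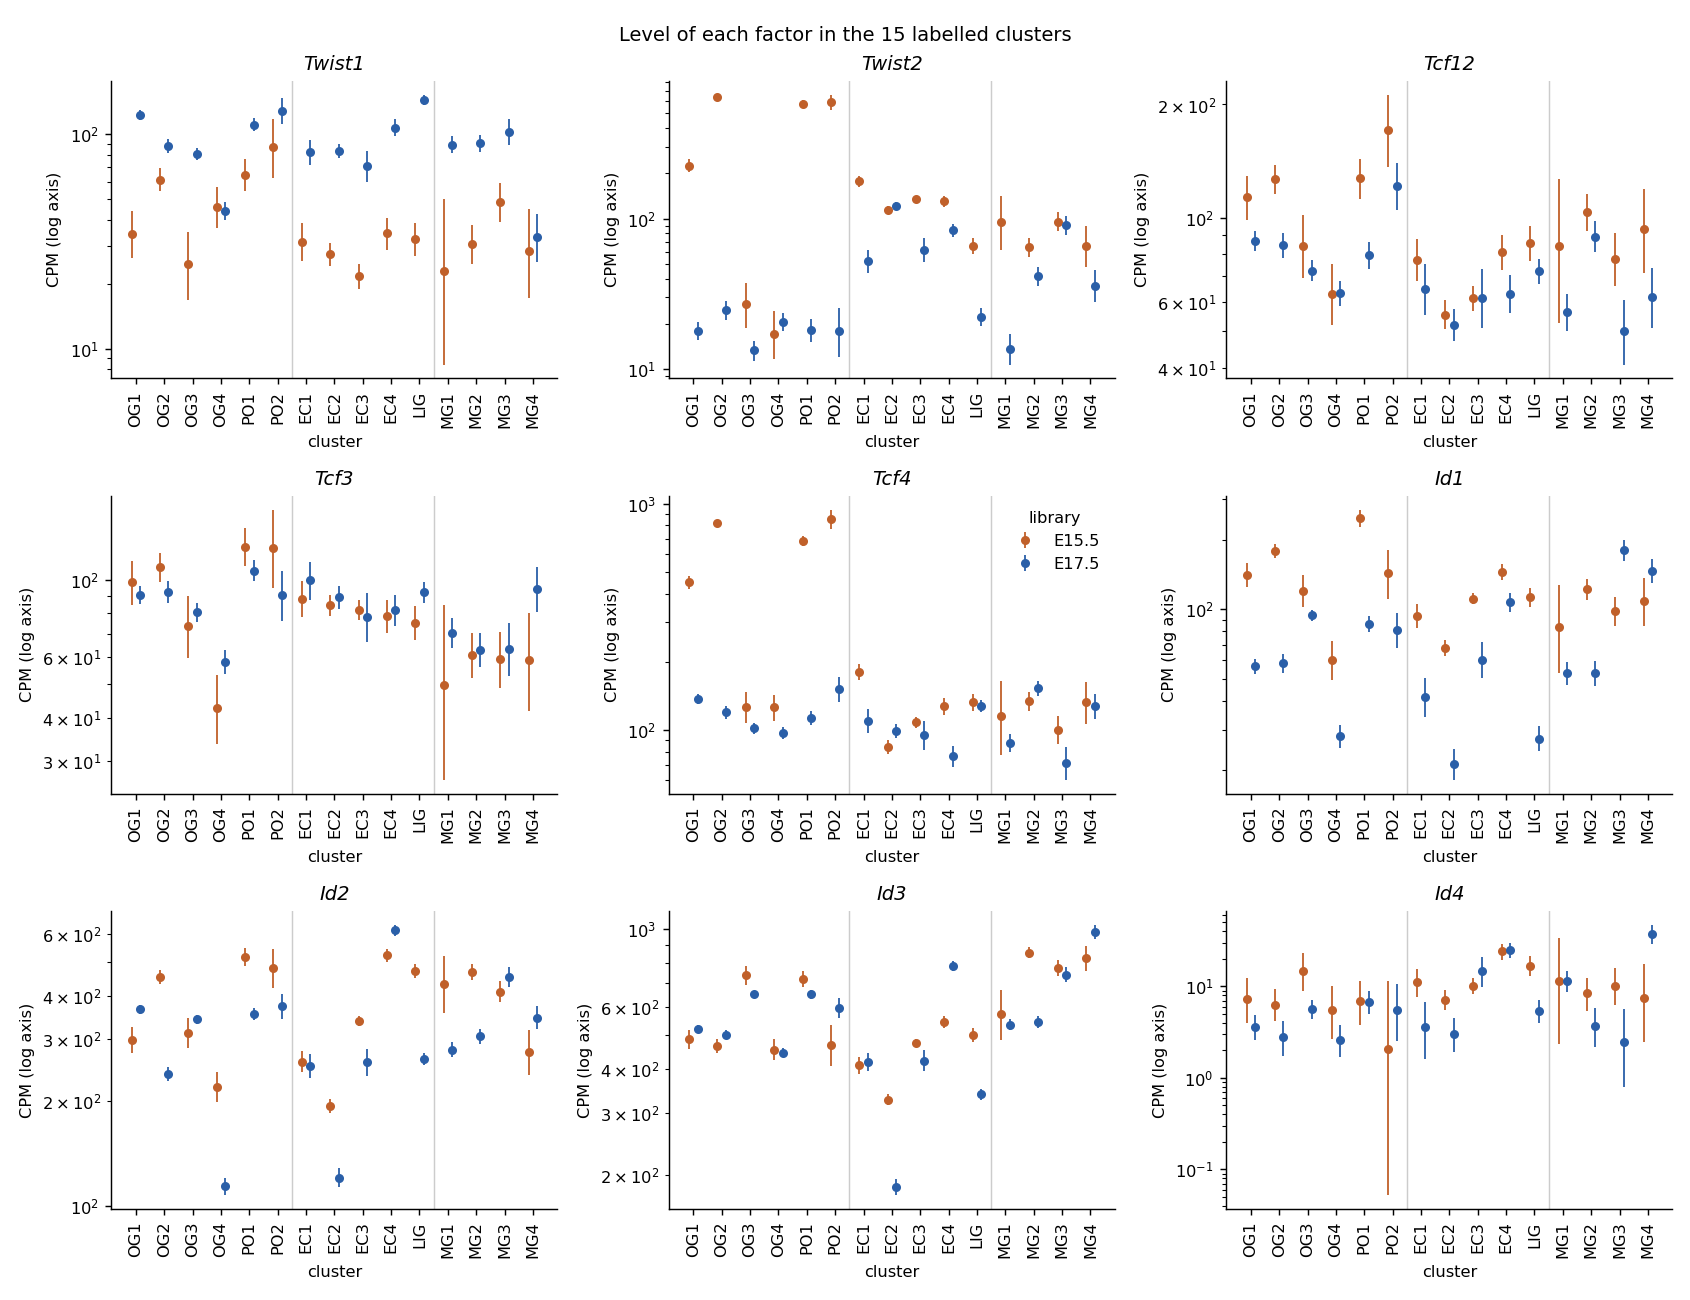
Level of each factor (CPM, log axis, separate scale for each gene) in the 15 clusters, with the exact 95% Poisson interval for counting error. Orange points are the E15.5 library and blue points the E17.5 library; grey lines separate osteogenic, ectocranial and meningeal clusters. Twist1 points are higher at E17.5 except in OG4 (45.9 and 43.8 CPM), and Twist2 and Tcf4 stand out at E15.5 in OG1, OG2, PO1 and PO2.

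Twist2, which encodes the close relative of Twist1, was lower at E17.5 and led in other clusters there. The E15.5 library held 182 CPM (178 to 186) over its labelled cells and the E17.5 library 35.6 CPM (34.4 to 36.8), with 49.0, 31.9 and 33.7 CPM in the suffixes. The clusters with most Twist2 at E15.5 were OG2 (638 CPM), PO2 (593), PO1 (576) and OG1 (225), and the next cluster was EC1 (177). OG3 (27.1 CPM) and OG4 (17.1 CPM), the clusters with most Sp7 at that stage (58.7 and 204 CPM), were lowest in Twist2. Cells with myeloid markers held Twist2 at 19.9 CPM (16.7 to 23.7) in the E15.5 library and 5.59 CPM (4.13 to 7.39) in the E17.5 library, so OG4 (11.6 to 24.3) was not above this background at E15.5. At E17.5 the ectocranial EC2 was highest (122 CPM), followed by MG3 (90.2) and EC4 (83.5), and OG3 (13.4), MG1 (13.6) and PO2 (17.9) were lowest. OG3 was at least 2-fold below the other labelled cells in both libraries (0.145 and 0.341 times their level). The interval of the ratio between libraries lay below 1 in 12 clusters, with the median at 0.460 and PO2 lowest at 0.0302 (0.0199 to 0.0443). The suffixes differed here, with medians of 0.612, 0.367 and 0.428. EC2 (114 and 122 CPM), MG3 (95.6 and 90.2) and OG4 (17.1 and 20.7) had intervals that held 1.

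The high Twist2 level of the E15.5 osteogenic clusters went with Crabp1. Cells with at least 3 Crabp1 UMIs made up 438 of 488 cells in OG2, 138 of 173 in PO1, 27 of 35 in PO2 and 46 of 261 in OG1. In OG2 at E15.5 Twist2 was at 682 CPM (656 to 709) in those cells and at 133 CPM (86.1 to 196) in the 25 cells with no Crabp1 UMI. In OG1 the values were 570 CPM (498 to 650) and 101 CPM (83.0 to 121), the latter over 161 cells. In PO1 they were 704 and 73.2 CPM. Crabp1 was also found in ectocranial clusters, with 3 or more UMIs in 79 of 330 cells of EC1 and 238 of 1185 of EC3 at E15.5. In EC1 such cells held Twist2 at 399 CPM (356 to 446), and the 174 cells with no Crabp1 UMI held 93.8 CPM (79.1 to 110). In EC3 the values were 174 CPM (158 to 191) and 110 CPM (100.03 to 120). Ectocranial cells without Crabp1 held 58.8 (LIG) to 110 CPM (EC3) at E15.5, beside 73.2 to 133 CPM in such cells of OG1, OG2 and PO1. All cells of OG3 and OG4 together held less at E15.5, with 27.1 and 17.1 CPM. In those clusters 16 of 140 and 3 of 190 cells had 3 or more Crabp1 UMIs. At E17.5 Twist2 in OG2 was at 22 CPM in the 84 cells with 3 or more Crabp1 UMIs and at 26.4 CPM in the 330 cells with none, with overlapping intervals (14.9 to 31.2 and 22 to 31.4). The split by Crabp1 was chosen after values were seen, and the part that these cells play in the difference between libraries was not tested beyond leaving them out.

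**Figure D2:**
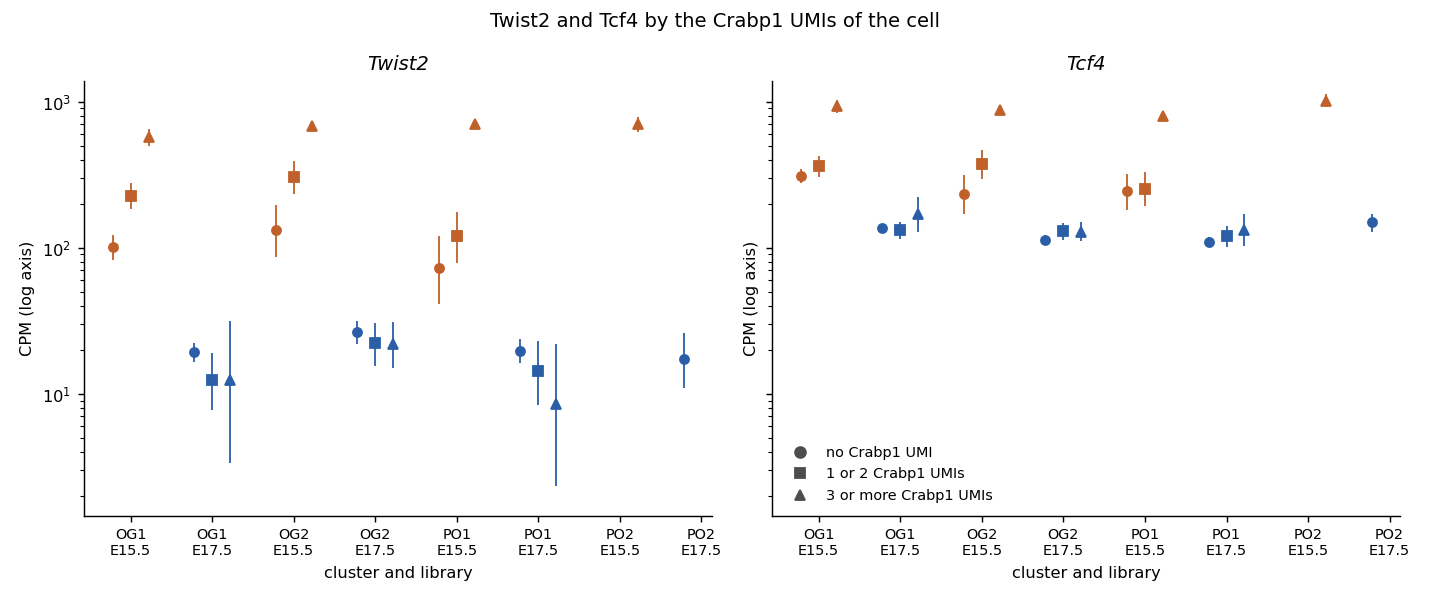
Level of Twist2 and Tcf4 (CPM, log axis, exact 95% Poisson intervals) in 4 osteogenic clusters, by the number of Crabp1 UMIs in the cell; orange is E15.5, blue is E17.5, and sets of fewer than 10 cells are not drawn. At E15.5 the triangles (3 or more Crabp1 UMIs) lie above the circles (none), as in OG2 with 682 against 133 CPM for Twist2, and at E17.5 their intervals overlap.

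The make-up of the Twist pair differed between the libraries. Twist1 gave 15.9% of the Twist1 and Twist2 UMIs of labelled E15.5 cells and 72.6% of those of E17.5 cells. UMIs of different genes can be captured unequally, so these shares serve only to compare sets of cells. In osteogenic clusters the share was 11.7% (10.8 to 12.6) at E15.5 and 83.0% (82.0 to 83.9) at E17.5, and in the other clusters it was 19.9% (18.9 to 21.0) and 63.4% (62.2 to 64.6), the latter with 48.3%, 66.8% and 67.0% in the suffixes. The osteogenic share was thus 0.587 times that of the other cells at E15.5 (0.535 to 0.644) and 1.31 times at E17.5 (1.28 to 1.34). Without cells with 3 or more Crabp1 UMIs the E15.5 value was 1.40 (1.22 to 1.61), which is the opposite direction. This filter took out 438 of 488 cells in OG2 and 138 of 173 in PO1, but 16 of 140 in OG3 and 3 of 190 in OG4. It therefore also changed the mix of osteogenic clusters, which cannot be told apart from the loss of the Crabp1 cells. In OG4 the share was 72.8% and 67.9%, and in OG3 it was 47.8% and 85.8%. At E15.5 these shares rest on Twist2 at or near the level of the myeloid-marker cells (17.1 and 27.1 against 19.9 CPM). The Twist2-rich EC2 had 40.7% at E17.5, the lowest share of that library.

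**Figure D3:**
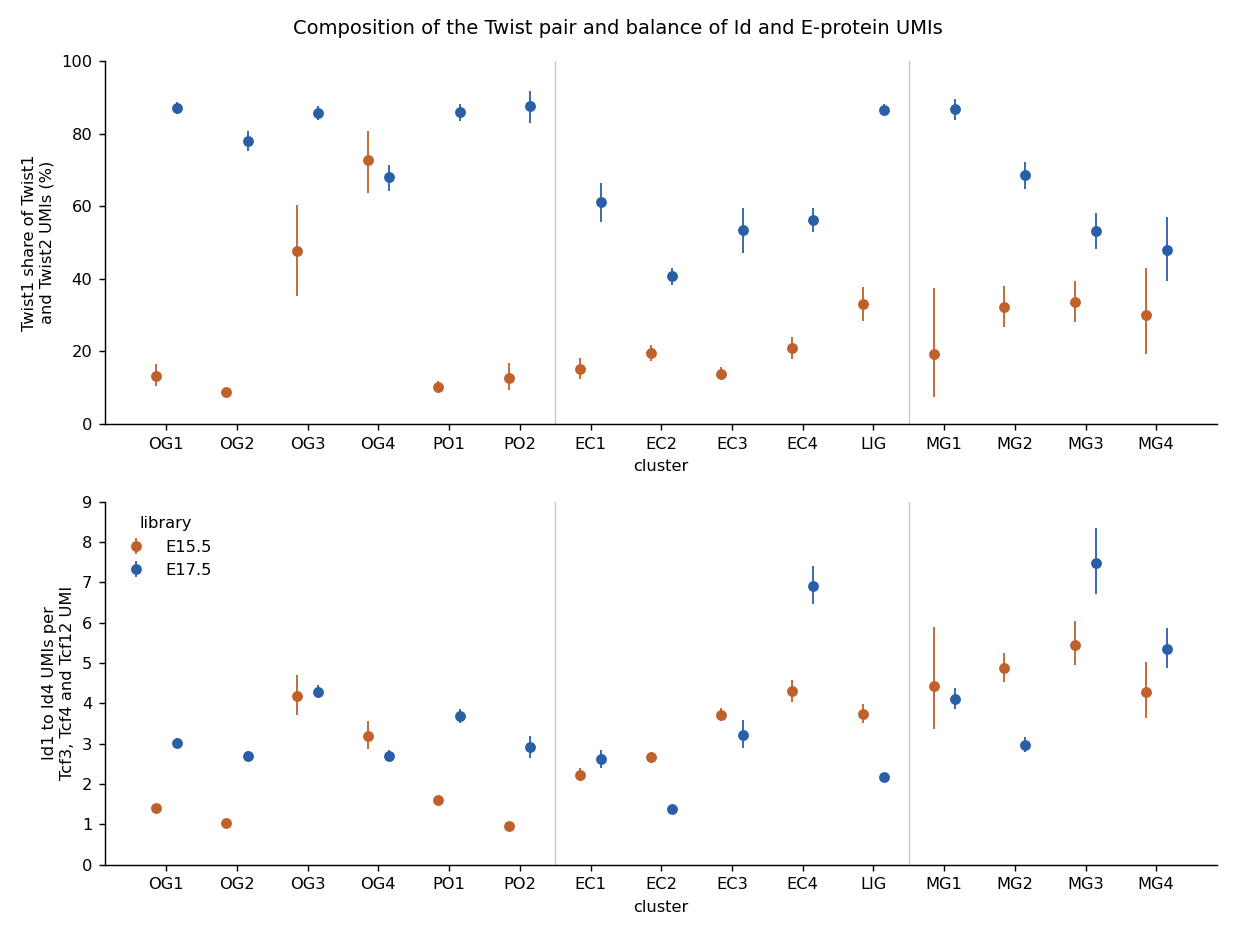
Upper panel: Twist1 as a percent of Twist1 and Twist2 UMIs in each cluster (exact 95% binomial interval). Lower panel: summed Id1 to Id4 UMIs per summed Tcf3, Tcf4 and Tcf12 UMI in each cluster (exact 95% interval); orange is E15.5 and blue is E17.5. The Twist1 share is higher at E17.5 in every cluster except OG4 (72.8% and 67.9%), and OG1, OG2, PO1 and PO2 have the lowest Id to E-protein ratios at E15.5.

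Among the E proteins, Tcf12 is the partner gene linked to coronal synostosis, and it was found in all clusters within a narrow range. Labelled cells held 80.8 CPM (78.3 to 83.4) in the E15.5 library and 72.2 CPM (70.5 to 74.0) in the E17.5 library. PO2 was highest in both libraries, with 171 CPM (137 to 213) and 122 CPM (105 to 140), and PO1, OG2 and OG1 came next at E15.5 (127, 127 and 113 CPM). EC2 was lowest at E15.5 (55.4 CPM) and second lowest at E17.5 (52.1 CPM), after MG3 (49.98 CPM). The span from highest to lowest was 3.1-fold and 2.43-fold. The ratio between libraries ran from 0.627 in PO1 to 1.00 in EC3, with a median of 0.777, and no cluster differed by 2-fold.

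Tcf3, which encodes the E2A proteins E12 and E47, differed least often between the libraries. It was at 82.6 CPM at E15.5 and 83.2 CPM at E17.5 over labelled cells, and the ratio between libraries had a median of 1.05, with 9 of 15 intervals holding 1. PO1 was highest in both libraries (125 and 106 CPM) and OG4 was lowest in both (42.6 and 58.0 CPM). Neighbours overlapped in all 14 pairs of each order, and the 2 ends of each order did not overlap.

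Tcf4, which encodes the E protein E2-2, followed Twist2 at E15.5 and was nearly level at E17.5. In the E15.5 library Tcf4 was at 853 CPM in PO2, 819 in OG2, 682 in PO1 and 448 in OG1, and between 83.6 (EC2) and 180 CPM (EC1) in the other 11 clusters, so these 4 clusters stood apart from the rest. At E17.5 all clusters lay between 71.1 CPM (MG3) and 152 CPM (MG2). The ratio between libraries was 0.305 in OG1, 0.146 in OG2, 0.165 in PO1 and 0.177 in PO2, and between 0.602 (EC4) and 1.18 (EC2) elsewhere. The high level again went with Crabp1: in OG2 at E15.5 it was 873 CPM (843 to 903) with 3 or more Crabp1 UMIs and 234 CPM (170 to 314) with none, and in OG1 it was 932 and 309 CPM. At E17.5 the same sets of OG2 held 129 and 113 CPM. Cells of OG1 without Crabp1 were still above every E15.5 cluster outside the 4 named, and in OG2 the interval of such cells reached down to EC1 (180 CPM). Tcf4 gave 72.6% of E-protein UMIs in osteogenic cells of the E15.5 library and 41.3% in those of the E17.5 library.

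Of the Id genes, Id1 was lower at E17.5 in most clusters. This BMP-responsive inhibitor was at 116 CPM (113 to 119) in the E15.5 library and 61.7 CPM (60.1 to 63.3) in the E17.5 library, with 72.6, 58.5 and 60.5 CPM in the suffixes. The ratio had a median of 0.468 and an interval below 1 in 12 clusters, with LIG lowest (112 and 27.5 CPM, a ratio of 0.245). The meningeal clusters MG3 (98.2 and 179 CPM) and MG4 (108 and 146 CPM) had intervals above 1, though in MG4 the suffixes gave 0.834, 1.36 and 1.39. The highest cluster was PO1 at E15.5 (247 CPM) and MG3 at E17.5 (179 CPM). Beside this, genes that tissue dissociation induces also differed between the libraries. The summed level of the 8 such genes with enough UMIs (Fos, Fosb, Jun, Junb, Egr1, Ier2, Atf3 and Dusp1) was 4056 CPM at E15.5 and 1847 at E17.5, with 85 of 120 gene and cluster pairs at least 2-fold lower at E17.5 and a median ratio of 0.386, against 0.999 for all genes. The summed level was lower at E17.5 in MG3 (1776 and 479 CPM) and MG4 (1920 and 422 CPM) too, where Id1 was higher. The part of the dissociation response in the Id1 values was not tested.

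Id2, a broadly expressed inhibitor of E proteins, varied more between clusters than between libraries. EC4, the cluster marked by C1qtnf3, was highest in both, with 521 CPM (499 to 544) and 614 CPM (591 to 637). EC2 was at 193 and 121 CPM, which was at least 2-fold below the other labelled cells in both libraries (0.492 and 0.393 times). OG4 was also low, with 219 and 114 CPM. The ratio between libraries ran from 0.519 in OG4 to 1.26 in MG4, with a median of 0.760.

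Id3, another BMP-responsive inhibitor, was level between the libraries, at 507 CPM (501 to 514) and 517 CPM (513 to 522). Meningeal clusters led at E15.5, with MG2 at 857, MG4 at 825 and MG3 at 776 CPM, and at E17.5 MG4 led (983 CPM), followed by EC4 (784) and MG3 (742). EC2 was lowest in both, with 327 CPM (315 to 339) and 184 CPM (175 to 194). No cluster differed by 2-fold between the libraries, and the median ratio was 0.956, with EC4 highest at 1.44 (1.37 to 1.52).

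Id4, the scarcest of the inhibitors in these files, was at 10.5 CPM (9.64 to 11.5) and 6.51 CPM (6.003 to 7.05) and led in few clusters. EC4 held 24.2 CPM (19.7 to 29.4) and 24.9 CPM, which was 2.61-fold and 4.47-fold the level of all others. MG4 held 7.52 CPM from 5 UMIs at E15.5 and 37.4 CPM (29.2 to 47.2) from 71 UMIs at E17.5, the highest level of that library. In LIG it was at 16.8 and 5.32 CPM. Most Id4 ratios between libraries rest on few UMIs, as in PO2 with 1 and 9.

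Each factor was also compared between a cluster and the other labelled cells, with a limit of 2-fold in both libraries. Of 135 pairs of a factor and a cluster, 1 was at least 2-fold higher in both (Id4 in EC4), where 1.28% of the pairs of all 7333 genes with at least 500 UMIs in each library were. At least 2-fold lower in both were 2 pairs (Twist2 in OG3 and Id2 in EC2), against 3.57% of all pairs. The members' shares, 0.741% and 1.48%, rest on these 3 pairs and are near those of all genes.

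Between the libraries more pairs differed. At E17.5, 12 of the 135 pairs (8.89%) were at least 2-fold higher, against 6.12% of all pairs, and these were Twist1 in 10 clusters and Id4 in PO2 and MG4. At least 2-fold lower were 30 pairs (22.2%), against 7.48% of all pairs, and these were Twist2 in 9 clusters, Id4 in 9, Id1 in 8 and Tcf4 in 4. Without OG1, OG2, PO1 and PO2, 17 of 99 pairs (17.2%) were lower, against 6.51% of all pairs in those 11 clusters. As mean UMIs per cell, with no correction for the greater depth of E17.5, 22 pairs (16.3%) were higher, against 20.5% of all pairs, and 16 (11.9%) were lower, against 3.82%. The median log2 ratio of all genes lay within 0.1 of 0 in 14 clusters and was 0.24 in OG4.

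**Figure D4:**
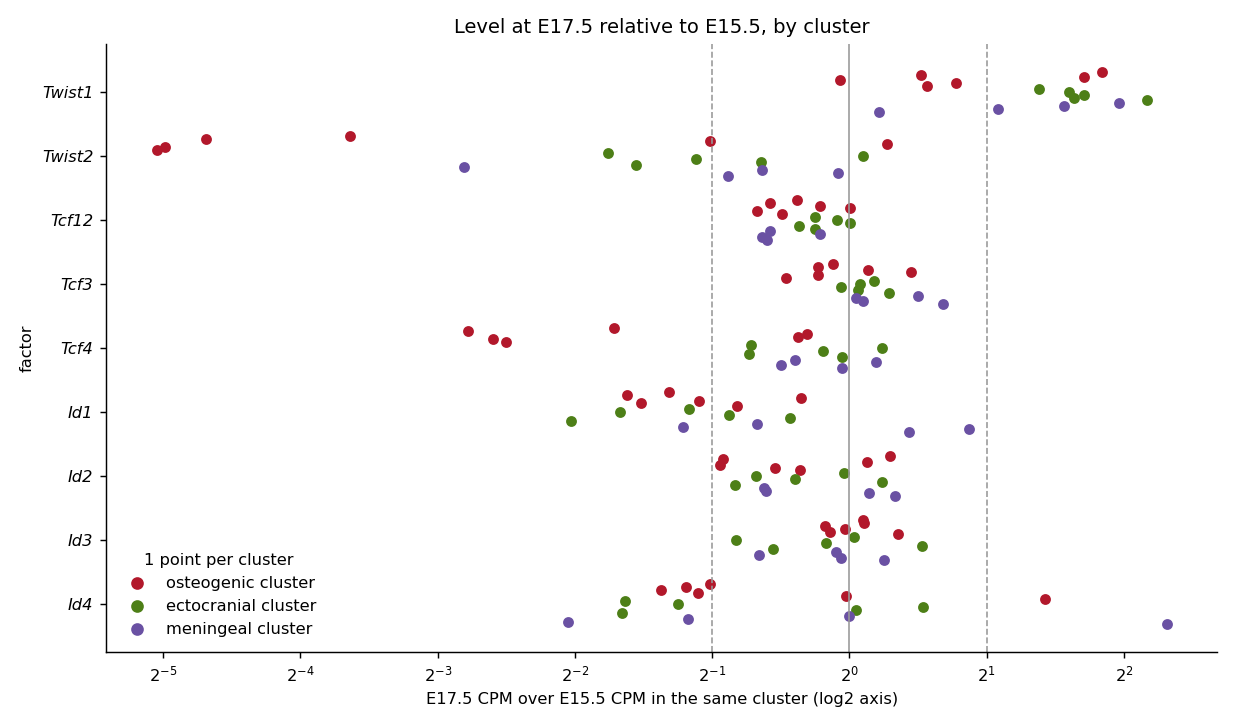
E17.5 CPM over E15.5 CPM for each factor (log2 axis), with 1 point for each of the 15 clusters; red, green and purple are osteogenic, ectocranial and meningeal clusters, and dashed lines mark 2-fold. Twist1 points lie right of the middle line in all but OG4 (0.955), Twist2 and Tcf4 points of OG1, OG2, PO1 and PO2 lie far to the left, and Tcf12, Tcf3, Id2 and Id3 stay within 2-fold in all clusters.

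The balance of Id to E-protein UMIs was lower in the osteogenic clusters at E15.5. There were 1.44 Id UMIs per E-protein UMI (1.40 to 1.48) in osteogenic cells and 3.61 (3.53 to 3.70) in the others, a ratio of 0.399 (0.385 to 0.413). At E17.5 the values were 3.30 (3.24 to 3.36) and 3.26 (3.18 to 3.33), a ratio of 1.01 (0.985 to 1.04), whose interval holds 1. The osteogenic clusters were not alike at E15.5: PO2 (0.9496), OG2 (1.05), OG1 (1.41) and PO1 (1.60) were low, while OG3 (4.18) and OG4 (3.196) were within the range of the others (2.23 in EC1 to 5.46 in MG3). Without Tcf4 the E15.5 ratio was 0.823, and without cells with 3 or more Crabp1 UMIs it was 0.668. Leaving out these cells also changed the mix of osteogenic clusters. At E17.5 the extremes lay outside bone, with EC2 at 1.37 (1.29 to 1.46), MG3 at 7.47 (6.71 to 8.34) and EC4 at 6.91 (6.47 to 7.40).

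Whether Twist1 and Tcf12 were found in the same cells was examined at equal depth. Each cell was thinned to 3000 UMIs (mean of 100 draws), which left out 160 labelled E15.5 cells and kept all 6830 of E17.5. After thinning, 9.35% of E15.5 cells held Twist1 and 21.3% held Tcf12, and at E17.5 these shares were 23.4% and 19.4%. Before thinning, Twist1 was found in 24.3% and 61.9% of labelled cells and Tcf12 in 47.7% and 57.8%. In cells with myeloid markers, with median depths of 10848 and 10207 UMIs against 8510 and 12301.5 in labelled cells, thinned Twist1 was at 1.24% and 3.46% and Tcf12 at 12.9% and 10.0%.

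Both transcripts were found in 2.28% of E15.5 cells (1.89 to 2.73) and 4.83% of E17.5 cells (4.34 to 5.37). The shares of the genes in each cluster alone would give 2.16% and 4.64%. The observed number was therefore 1.06 times the expected one at E15.5 (0.874 to 1.26) and 1.04 times at E17.5 (0.932 to 1.16), and both intervals hold 1. Single draws gave 0.858 to 1.21 and 0.929 to 1.14. At this depth no excess or lack of cells with both transcripts was detectable within clusters, and the upper bounds allow an excess of up to 1.26 and 1.16 times. Without thinning, 13.6% and 38.5% of cells held both. Twist1 with Tcf3 (0.994 and 1.03), Twist1 with Tcf4 (1.07 and 1.04) and Twist1 with Twist2 (1.10 and 1.01) also had intervals that held 1. Id1 and Id3 were found together more often than their shares give, at 1.11 times in both libraries (1.05 to 1.18 and 1.04 to 1.19), and Twist2 with Tcf4 was at 1.10 (1.02 to 1.18) at E15.5 and 0.982 (0.839 to 1.14) at E17.5.

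**Figure D5:**
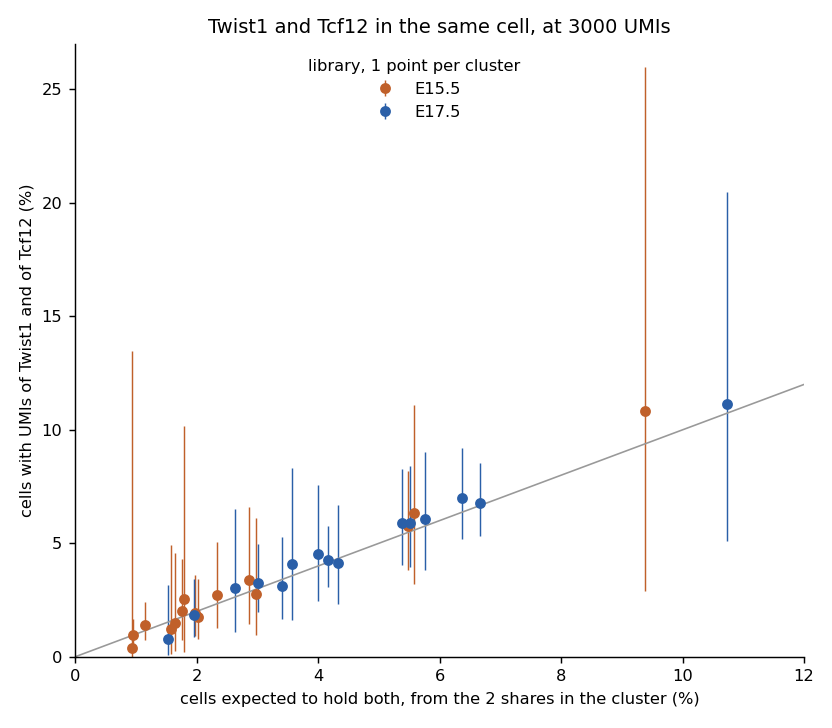
Percent of cells with UMIs of both Twist1 and Tcf12 after thinning to 3000 UMIs (vertical axis, exact 95% binomial interval) against the percent expected from the share of each gene in the cluster (horizontal axis), with 1 point per cluster and library. The points follow the line of equality, and over all clusters the observed number was 1.06 and 1.04 times the expected one.

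The pattern over the 15 clusters, measured as Pearson's r of log2(CPM + 1) within a library, was compared among 7332 other genes. The points share a library and differ in depth, so these values are descriptions. The genes most like Tcf12 in both libraries were Smc1a (0.828 and 0.850), Sephs1 (0.809 and 0.802) and the member Tcf4 (0.871 and 0.80). For Tcf3 they were Mat2a (0.868 and 0.843), Prkaca and Cdc7, and for Tcf4 they were Tcf12, Arl6ip4 and Cep44. Twist2 was most like Mgst1 (0.807 and 0.862), Mt1 and Sept11. Twist1 had the weakest match, with Ppp6r3 (0.724 and 0.666), Inhba and Gsk3a. Id1 was matched by Mfsd10 (0.761 and 0.818), 2310033P09Rik and Id2, Id2 by Tbc1d16, Cers4 and Auts2, Id3 by Tmem176b (0.801 and 0.845), Mpped2 and Erc1, and Id4 by Them4, 6330403K07Rik and Efnb1. Between members, Twist2 and Tcf4 had r = 0.804 at E15.5 and -0.44 at E17.5, Id1 and Id3 had 0.339 and 0.894, and Id1 and Id2 had 0.709 and 0.810.

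Other genes of these pathways were described from 4 further lists. The median ratio between libraries was 0.936 for the other bHLH factors, 0.996 for the BMP response, 1.10 for genes tied to Twist1 and 0.841 for corepressors, beside 0.999 for all genes. Of 15 other bHLH factors, only Bhlhe40 and Hes1 had 500 UMIs in each library, and neither was 2-fold apart in any cluster in both. Among the scarcer ones Scx, a tendon factor, was highest in MG2 in both libraries (45.5 and 87.6 CPM), and Heyl, a Notch target, was highest in OG3 at E15.5 (20.9 CPM) and MG4 at E17.5 (21.6 CPM). Of 14 BMP response genes 9 had enough UMIs, and 6 of their 135 pairs (4.44%) were at least 2-fold higher in both libraries and 13 (9.63%) lower, beside 1.28% and 3.57% for all genes. Between the libraries 39 of the 135 pairs were at least 2-fold higher at E17.5 and 21 lower, beside 6.12% and 7.48% of all pairs. The 6 pairs higher than the other labelled cells in both libraries included Bambi, a decoy receptor, and Bmp2, both in OG4. Bambi was at 418 and 362 CPM there and Bmp2 at 45.3 and 36.8 CPM. The others were Msx1 in MG1 and MG4, Msx2 in MG2 and Bmp7 in EC2 (107 and 107 CPM).

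Of 15 genes tied to Twist1 in the suture, 13 had enough UMIs, and 2 of 195 pairs were higher in both libraries (Prrx1 in EC4 and LIG) and 13 were lower (1.03% and 6.67%, beside 1.28% and 3.57% for all genes). Prrx1, a mesenchymal homeobox gene, was at 928 and 885 CPM in LIG and at 865 and 909 in EC4. Of the lower pairs 5 were in OG4 (Epha4, Snai2, Zeb1, Postn and Prrx1), 4 in EC2 and EC3 (Fgfr2 and Runx2) and 4 in MG3 and MG4 (Runx2 in both, Postn and Prrx1 in MG3). Between the libraries 34 of the 195 pairs were at least 2-fold higher at E17.5 and 7 lower, again beside 6.12% and 7.48%. Of 3 corepressors that bind E proteins, Runx1t1 and Cbfa2t2 had enough UMIs, none was higher in a cluster in both libraries, and Runx1t1 was lower in OG4 (3.32 and 8.10 CPM).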

How the data were processed

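Single cells of the coronal suture were measured in 2 libraries, E15.5 and E17.5. The authors deposited counts, that is the whole-number UMIs per gene for 15384 and 9326 barcodes, which include more cells than they labelled. Their methods name Cell Ranger and mm10, while a matrix header (E15.5) gives the software version as 3.1.0. A second deposited file, made with Seurat 3.2.0 after filtering and integration, gave each cell's cluster, cell cycle phase and total count; its integrated values were not used.

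The members and gene lists were chosen with earlier results of these data known. UMIs of labelled cells were summed per cluster and library. CPM and exact 95% intervals (Poisson, Clopper-Pearson, conditional for ratios) were obtained in Python 3.11.15 (numpy 2.4.6, pandas 2.3.3, scipy 1.17.1). A gene entered the comparison with all genes where it had 500 or more UMIs in each library, and a call needed 2-fold. Thinning drew 3000 UMIs per cell without replacement, 100 times. The genes named were the members, the 3 most alike for each (pseudocount of 1), and list genes called in both libraries. Scx and Heyl were named after their values were seen. Doublets were not called: the E17.5 cells had been sorted against them, and cells above the 95th percentile of UMIs were left out as an alternative. Unlabelled barcodes passing the study's limits (1000 UMIs, 1000 genes, 7.5% mitochondrial and 3% haemoglobin UMIs) were assigned to a cell type by 3 markers and 10 UMIs, limits chosen after seeing the data. Positions follow GENCODE on GRCm38. The computations were tested on simulated data. Alternatives covered scale, denominator, cell filters, limits and single suffixes.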

Additional observations from a re-analysis of the deposited data

Results flagged for a closer look

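Twist2 stood on opposite sides of the rest of the labelled cells in PO1 and PO2. For PO1 its level was 3.49 times theirs in the E15.5 library and 0.490 times in the E17.5 library. For PO2 the values were 3.33 and 0.499. The difference was not tested, since each stage has 1 library. Cells with 3 or more Crabp1 UMIs numbered 138 of 173 in PO1 and 27 of 35 in PO2 at E15.5, against 20 of 363 and 4 of 76 at E17.5, and their part in the difference was not tested.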

How the results depend on the processing

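Of 127 alternatives for the counts and ratios compared, 90 stayed within the stated margin, 36 moved and 1 reversed, and of 171 for single values 158 stayed and 13 moved. The count of pairs higher in both libraries (1) was 4 with a 1.5-fold limit and 6 as mean UMIs per cell. The count lower in both (2) was 13 with 1.5-fold, 1 as mean UMIs per cell, 4 within the stated cell limits, 4 without the top 5% of UMIs and 1 without PO1 and PO2. Pairs higher at E17.5 (12) were 22 as mean UMIs per cell. Pairs lower at E17.5 (30) were 49 with 1.5-fold, 16 as mean UMIs per cell and 17 without OG1, OG2, PO1 and PO2. The Id to E-protein ratio at E15.5 (0.399) was 0.352 as a median over clusters, 0.369 thinned, 0.375 without the top 5%, 0.383 without Id1, 0.420 without Id3, 0.342 without Tcf12, 0.322 without Tcf3, 0.823 without Tcf4 and 0.668 without Crabp1 cells. At E17.5 (1.01) it was 0.920, 0.964 (thinned), 1.08 without Id2, 0.913 without Id3 and 1.06 without Tcf12. It was 1.09 in suffix 1, 0.984 in suffix 3 and 1.07 in the 297 cells with fewer than 2 blood, vessel or myeloid markers. The Twist1 share ratio at E15.5 (0.587) was 0.533 thinned and reversed to 1.40 without Crabp1 cells. At E17.5 (1.31) it was 1.53 as a median, 1.39 thinned and 1.34 without the top 5%. It was 1.76, 1.25 and 1.22 in suffixes 1, 2 and 3, and 1.21 in the same 297 cells. The cause of these moves was not tested. The alternative limited to cells with fewer than 2 such markers gave no value at E15.5, where haemoglobin UMIs removed all 5335 cells. The point value of Twist1 and Tcf12 co-detection stayed within the interval of the main setting under every alternative run. Whether the interval of each alternative held 1 is not given here. No paired analysis was possible because each stage has 1 library. Depth limits Id4 and the small E15.5 clusters MG1 (28 cells) and PO2 (35 cells) most.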

Other observations

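Barcodes outside the labelled clusters gave levels of the same 9 factors in other cell types, named by markers only. Cells with endothelial markers (28 and 120, E15.5 first here and in what follows) held Tcf4 at 740 CPM (660 to 827) and 723 CPM (682 to 766), which is at the level of the Crabp1-rich osteogenic clusters of E15.5, but Twist2 at 7.12 and 2.50 CPM. Cells with pericyte markers (63 and 154) held Id3 at 980 CPM (912 to 1052) and 1209 CPM (1161 to 1258), above the highest labelled cluster of each library (857 and 983 CPM), and Id4 at 22.9 and 44.9 CPM. Cells with chondrocyte markers (1401 and 289) held Tcf12 at 137 CPM (131 to 142) and 166 CPM (153 to 180), Id1 at 278 and 311 CPM, and Twist2 at 22.7 and 13.2 CPM. Their Id4 was near that of the pericyte-marker cells, at 20.9 and 41.2 CPM. Their Id3 was at 901 CPM (886 to 915) and 773 CPM. The E15.5 value was also above the highest labelled cluster (857 CPM, 824 to 891), with overlapping intervals, and the E17.5 value was below it (983 CPM). Their Id1 was not lower at E17.5, unlike that of most labelled clusters. Cells with myeloid markers (538 and 715) held Id2 at 235 and 260 CPM, and Id1 at 25.1 and 12.7 CPM.

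Tcf3 was higher in cells that the deposited table calls S or G2M than in G1 cells of the same cluster, in each of the 11 clusters (E15.5) and 12 clusters (E17.5) with at least 20 cells of each kind. The median ratio was 1.18 and 1.19, and the widest was in OG4. There the E15.5 library had 37.9 CPM in G1 cells and 63.0 CPM in the 24 S or G2M cells, a ratio of 1.66 whose interval holds 1 (0.954 to 2.78), and the E17.5 library had 49.2 and 76.6 CPM, a ratio of 1.56 (1.32 to 1.84). The interval lay above 1 in 3 and 7 of these clusters. Tcf12 gave medians of 1.02 and 1.01. The phase calls were made from other genes of the same cells. Phase calls alone do not show that these cells were cycling, and no test was run.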
